A study of Mus musculus with 87 samples.

Results

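A pair of mouse embryonic stem cell knockouts that remove opposite sides of Polycomb repressive complex 2 (PRC2) were set against each other by RNA sequencing. One lacked the 3 Polycomb-like proteins and EPOP (Pcl1-3 + Epop KO), the other lacked JARID2 and AEBP2 (Jarid2 + Aebp2 KO), and each had 3 libraries, 6 of the 24 RNA libraries and of the 87 samples in the series. The members were taken by the genotype in the sample labels, and every Ensembl gene ID with enough reads was compared. Wild-type cells are on neither side of the comparison, but their libraries entered the filter and the estimate of spread. The cells were grown on gelatin in 2i medium, in which inhibitors of differentiation signals hold embryonic stem cells in a naive state. Nothing in the labels tells if libraries of one genotype stem from different cultures or different clones. The p-values therefore rest on library-to-library spread alone, and that spread may be technical. The strain label has another final digit in each of the 8 RNA genotypes (129B6F4 for Pcl1-3 + Epop KO and 129B6F5 for Jarid2 + Aebp2 KO), in step with the order in which the genotypes are listed. It is therefore uncertain that these labels name different strains; if they do, strain and genotype cannot be told apart.

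PRC2 methylates lysine residues of histone H3 and is known for repressing genes of development in stem cells. Its core, which includes SUZ12, binds 2 kinds of accessory subunits that exclude each other. The form called PRC2.1 holds a Polycomb-like protein (PHF1, MTF2 or PHF19, also named PCL1, PCL2 and PCL3), which binds DNA rich in unmethylated CpG, and can hold EPOP, which links it to elongin. The form called PRC2.2 holds JARID2 and AEBP2, which recognise histone H2A ubiquitinated by the other Polycomb complex, PRC1. The question of the comparison was how the transcriptome of cells without the accessory subunits of the first form differs from that of cells without those of the second.

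Total counts in the 6 libraries ran from 11643917 to 16477779. Of 55450 IDs in each file, 30181 had no count in any of the 6 libraries. The IDs are not paired with symbols or positions in the sources used here, and 0 of the 55450 matched the reference table. Results are therefore given by ID, for at most 2 IDs in each direction, and the targeted genes, markers of stem cells and of other cell types, and fixed gene lists were not analysed here. Levels are in CPM, the count of an ID divided by the library's total after scaling for composition.

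The libraries of Pcl1-3 + Epop KO spread more than those of Jarid2 + Aebp2 KO. Over the 14650 IDs tested, the median standard deviation of log2 CPM between the 3 libraries was 0.284 in Pcl1-3 + Epop KO and 0.201 in Jarid2 + Aebp2 KO, and 0.157 to 0.246 in the 5 other knockouts. Replicate 3 of Pcl1-3 + Epop KO stood apart. Its root mean square deviation from its genotype's mean was 0.497 log2 units, that of replicate 1 was 0.419 and that of replicate 2 was 0.257, while those of Jarid2 + Aebp2 KO were 0.295 to 0.302. The counts of IDs past the threshold are therefore also given without that library.

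A small share of IDs passed the threshold between the knockouts. At the median, the IDs called lower in Pcl1-3 + Epop KO differed by more than those called higher in it. Of 14650 IDs, 284 were higher (1.94% of those tested) and 340 were lower (2.32%) in Pcl1-3 + Epop KO, 624 in all (4.26%), by edgeR's quasi-likelihood test over all 24 libraries at a Benjamini-Hochberg adjusted p under 0.05. The median log2 fold change, Pcl1-3 + Epop KO over Jarid2 + Aebp2 KO, was 0.77 among the higher IDs, a 1.71-fold difference, and −1.11 among the lower IDs, a 2.16-fold difference. Over all IDs tested it was 0.0097. In the same edgeR test 2207 IDs (15.1%) had an unadjusted p under 0.05. An ID that did not pass the threshold is not shown to be equal between the knockouts. In bulk RNA, fewer cells that express a gene and less RNA per cell cannot be told apart. More than 2-fold differences were found in 108 of the higher (0.737% of IDs tested) and 184 of the lower IDs (1.26%). More than 4-fold differences were found in 25 and 61. The 7 lower IDs without a count in Pcl1-3 + Epop KO did not move the median when they were set at the fold that 3 counts over the group would give.

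**Figure D1:**
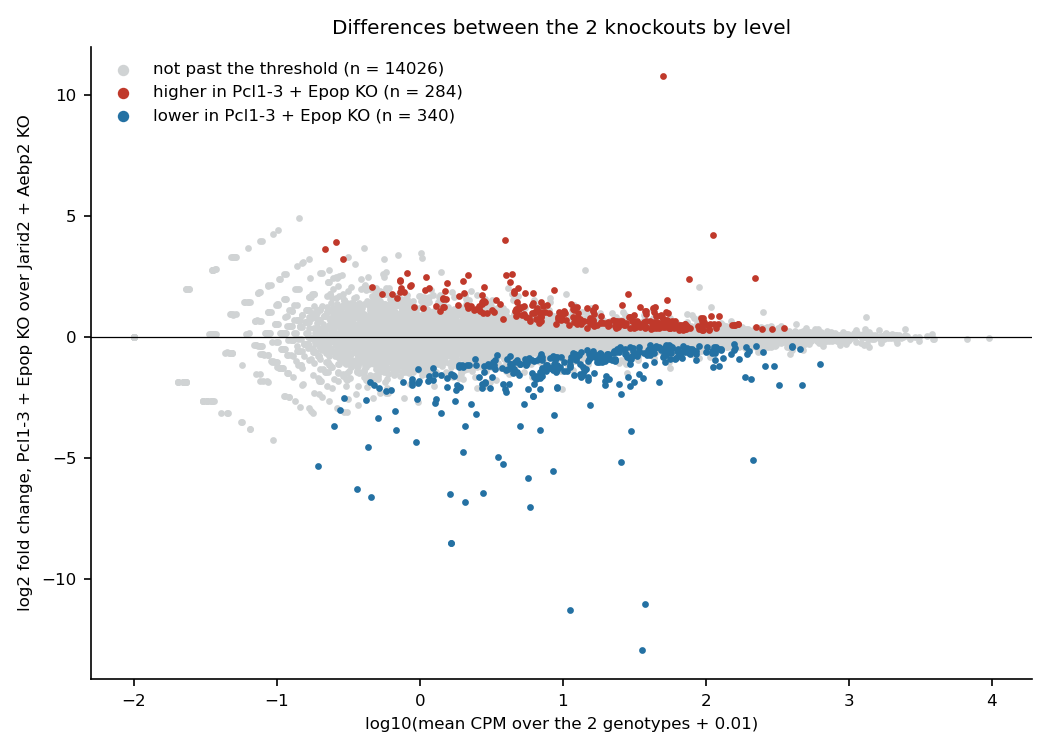
Each point is an ID, with log10 of its mean CPM over the 2 genotypes (plus 0.01) on the horizontal axis and its log2 fold change, Pcl1-3 + Epop KO over Jarid2 + Aebp2 KO, on the vertical axis. The 284 IDs called higher and 340 called lower lie on both sides of 0, and 1 higher ID and 3 lower IDs lie past 10 log2 units. Fitted values of IDs with no read in one genotype depend on the prior count and are no measure of size.

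How many IDs passed differed widely between settings. The fit gives each ID one spread for all genotypes, although Pcl1-3 + Epop KO had the widest spread of the 7 knockouts. The shared spread may thus be too small for that genotype. Whether 624 is too many for that reason was not tested. With limma-voom and a weight per genotype, a setting added after the data were seen, 101 IDs were higher (0.689%) and 145 lower (0.990%), and all 246 were among the 624. With the replicate number as a block, 627 IDs were higher (4.28%) and 691 lower (4.72% of IDs tested), and these 1318 included all 624. With only the 6 libraries compared in the fit, which also leaves fewer IDs and fewer residual degrees of freedom, 12 were higher (0.0925%) and 45 lower (0.347%), and all 57 were among the 624. Leaving out replicate 3 of Pcl1-3 + Epop KO gave 267 higher (1.82%) and 390 lower IDs (2.66%), of which 442 were among the 624. The total fell to 344 without replicate 2 of Pcl1-3 + Epop KO, and to 401 and 323 without replicates 2 and 3 of Jarid2 + Aebp2 KO. None of the 624 changed sign in any of the 17 alternatives in which it was tested, and 55 were past the threshold in every one of them. Of those 55, 11 were higher and 44 lower in Pcl1-3 + Epop KO, with a median difference of 1.77 log2 units among the higher and 2.16 among the lower IDs. All 55 are among the 57 called with only the 6 libraries, so that setting nearly fixes the set. Its strictness favours IDs with large differences, so these medians do not describe the 624.

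**Figure D2:**
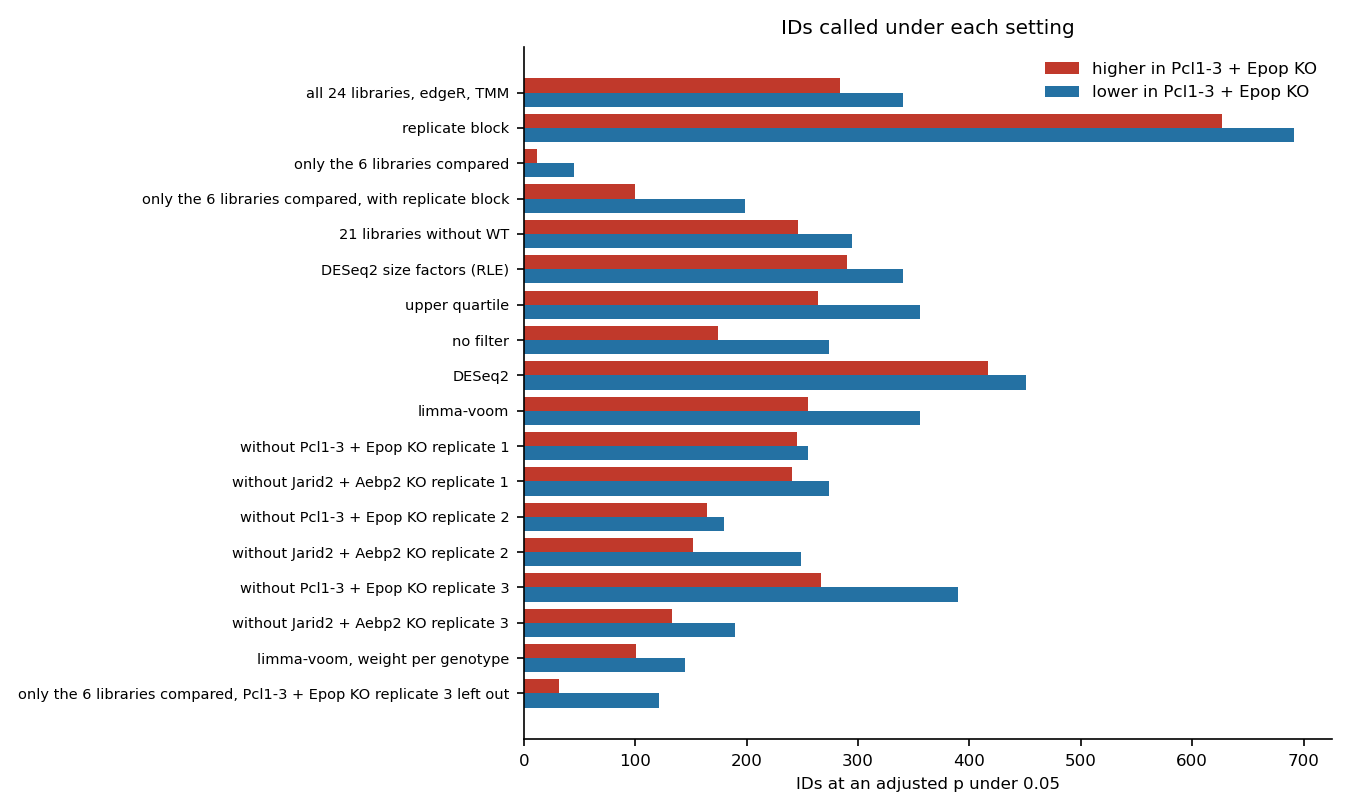
Bars give the number of IDs past an adjusted p of 0.05, higher or lower in Pcl1-3 + Epop KO, for the fit over 24 libraries and each alternative. The number of lower IDs exceeds that of higher IDs in every setting, from 12 and 45 with only the 6 libraries compared to 627 and 691 with the replicate block.

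The values of single libraries can be set beside these calls. All 3 Pcl1-3 + Epop KO libraries lay above all 3 Jarid2 + Aebp2 KO libraries for 269 of the 284 higher IDs, and they did so for 1123 (7.67%) of all IDs tested. They lay below them for 331 of the 340 lower IDs, against 1203 (8.21%) of all IDs tested. The libraries overlapped for 15 of the higher and 9 of the lower IDs.

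Calls were found at every level of expression, and large differences mostly among IDs of low level. IDs were sorted by their mean CPM over the 6 libraries. Of 2186 IDs under 1 CPM, 16 were higher and 25 lower (1.88% called), and all of them by more than 2-fold. Between 1 and 10 CPM, 93 of 3531 IDs were higher and 128 lower (6.26% called), of which 66 and 107 by more than 2-fold. Between 10 and 50 CPM, 104 of 4400 were higher and 115 lower (4.98%), of which 20 and 41 by more than 2-fold. Above 50 CPM, 71 of 4533 were higher and 72 lower (3.15%), of which 6 and 11 by more than 2-fold. A small difference at a low level was not detectable at this depth, so that the smaller share called under 1 CPM does not show that fewer such IDs differed. In each class the median difference of the lower IDs was larger than that of the higher IDs: −2.50 against 2.09 log2 units under 1 CPM, −1.46 against 1.23, −0.84 against 0.65, and −0.58 against 0.49 above 50 CPM.

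A pair of IDs led those higher in Pcl1-3 + Epop KO. ENSMUSG00000030232.18 had 88.7, 106.5 and 103.2 CPM in the Pcl1-3 + Epop KO libraries, against 0, 0.124 and 0 CPM in the Jarid2 + Aebp2 KO libraries. In counts that is 3715 reads in Pcl1-3 + Epop KO and 2 in Jarid2 + Aebp2 KO, a ratio of 2107 (95% exact counting interval 583 to 17410; edgeR adjusted p = 5.96e-14). It was thus abundant in each library of the one and all but absent from each library of the other.

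Across the remaining knockouts this ID separated by one label. Its mean was 90.4 ± 19.2 CPM in Pcl1-3 KO, 181 ± 31.9 CPM in Pcl1-3 + Jarid2 KO and 107 ± 8.76 CPM in Suz12 KO (SD, n = 3 each). In Pcl1-3 + Jarid2 + Aebp2 KO it was 0.171 ± 0.076 CPM, and in Pcl1-3 + Jarid2 + Aebp2 + Epop KO it was 0.213 ± 0.240 CPM. The ID was low in the 9 libraries whose label lists Aebp2 as knocked out and high in the other 12 knockout libraries. Whether it is a targeted gene cannot be read from the files, which carry no symbols.

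ENSMUSG00000038518.15 had 265, 230.3 and 139 CPM in the Pcl1-3 + Epop KO libraries, against 11.7, 10.6 and 11.6 CPM in the Jarid2 + Aebp2 KO libraries. The groups did not overlap, and the lowest Pcl1-3 + Epop KO value was that of replicate 3. The log2 fold change was 4.23 ± 0.20 (SE; edgeR adjusted p = 4.07e-12), and 4.46 without that library. Its level was 200.3 ± 26.2 CPM in Pcl1-3 KO and 264 ± 26.4 CPM in Suz12 KO, against 6.33 ± 0.506 in Pcl1-3 + Jarid2 KO, 5.25 ± 1.17 in Pcl1-3 + Jarid2 + Aebp2 KO and 6.35 ± 1.12 CPM in Pcl1-3 + Jarid2 + Aebp2 + Epop KO. It was low, but not absent, in the 12 libraries whose label lists Jarid2 and high in the other 9 knockout libraries. Without symbols, it could not be told whether this ID is itself a targeted gene.

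A pair of IDs led those lower in Pcl1-3 + Epop KO, and neither had a read in its 3 libraries. ENSMUSG00000069049.11 had 0 CPM in each Pcl1-3 + Epop KO library, against 65.6, 58.8 and 89.0 CPM in the Jarid2 + Aebp2 KO libraries. With 2972 reads in Jarid2 + Aebp2 KO, it was at least 873-fold lower in Pcl1-3 + Epop KO, computed against 3 counts over the group (edgeR adjusted p = 3.28e-09). ENSMUSG00000068457.14 had 0 CPM in each Pcl1-3 + Epop KO library, against 19.9, 28.3 and 19.5 CPM in the Jarid2 + Aebp2 KO libraries. It was at least 287-fold lower by the same bound, from 976 reads in Jarid2 + Aebp2 KO (edgeR adjusted p = 1.32e-07). Bounds and intervals cover counting error only.

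Both of these IDs were silent in every knockout that lost Pcl1-3, with or without Epop. Over the 15 libraries of those 5 genotypes, ENSMUSG00000069049.11 had 2 reads, both in Pcl1-3 + Jarid2 KO, and ENSMUSG00000068457.14 had 0. Over the 6 libraries of Jarid2 + Aebp2 KO and Suz12 KO they had 5471 and 1910 reads. Their means in Suz12 KO, which lacks a core subunit, were 52.2 ± 10.1 and 19.6 ± 2.50 CPM (SD, n = 3). The labels do not say whether the 5 genotypes were made from one parental line, so a difference between lines and the loss of Pcl1-3 cannot be told apart for IDs of this pattern. Without positions, whether such IDs lie on one chromosome was not tested.

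**Figure D3:**
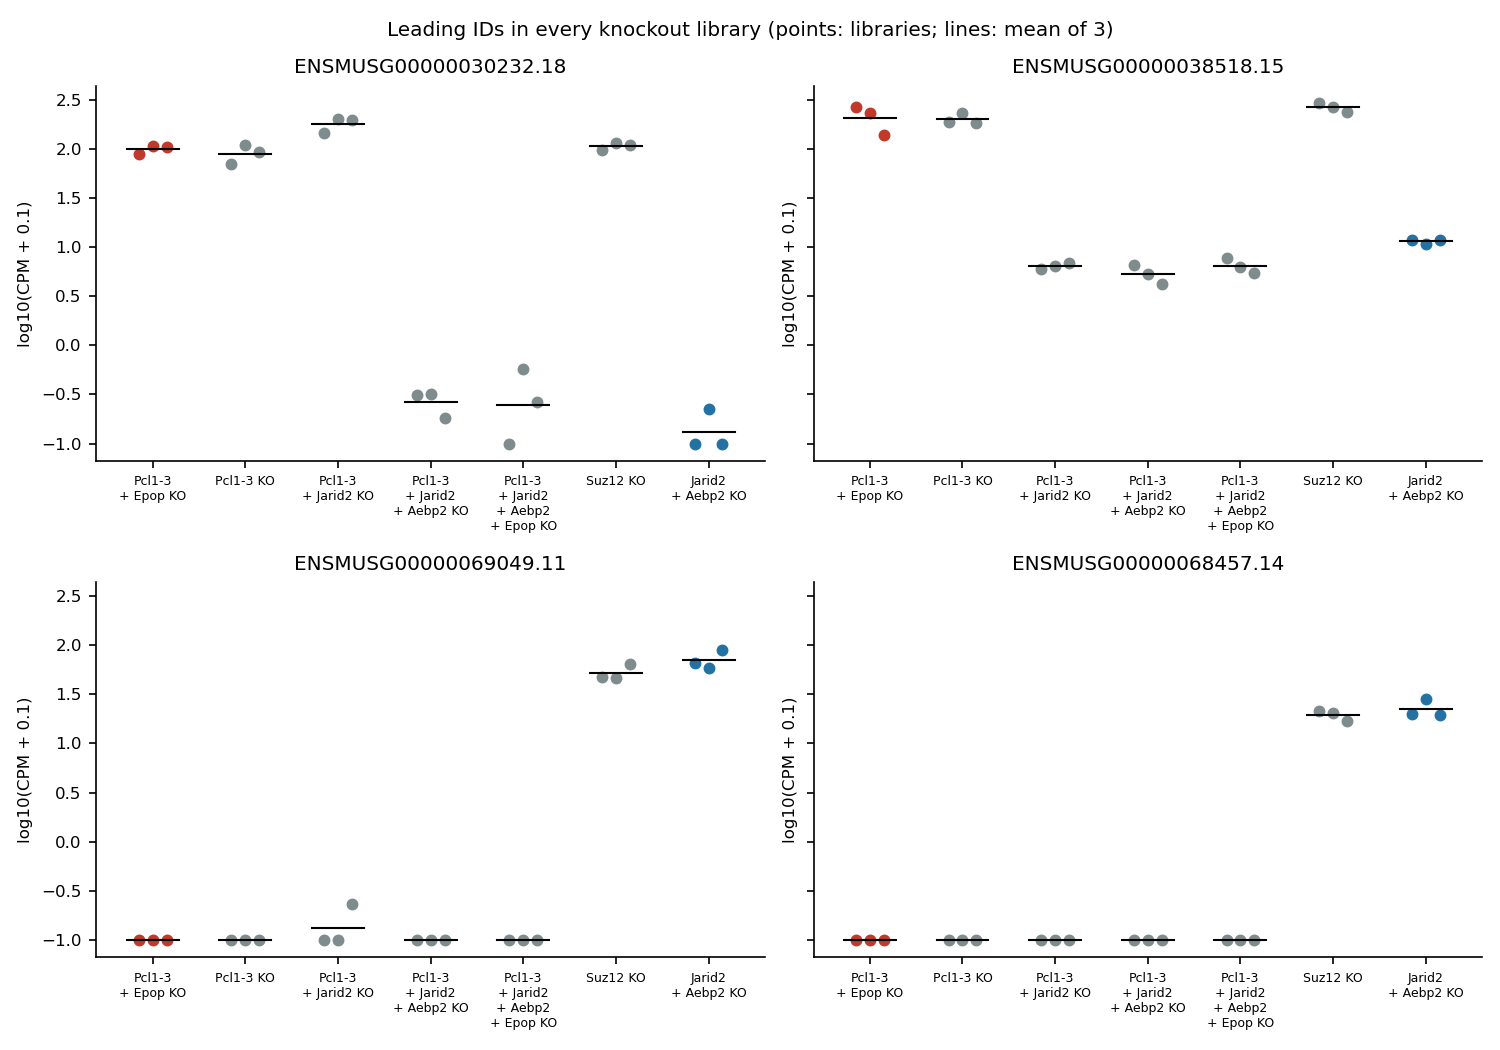
Points give log10(CPM + 0.1) of each leading ID in each library of the 7 knockouts, and lines give the mean of 3 such values. The 2 IDs of the upper row are high in Pcl1-3 + Epop KO and low in Jarid2 + Aebp2 KO, where ENSMUSG00000038518.15 still had 10.6 to 11.7 CPM; those of the lower row are at 0 CPM in Pcl1-3 + Epop KO and high in Jarid2 + Aebp2 KO and Suz12 KO.

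Expression that was nearly off in one knockout and on in the other was lopsided. Nearly off means a mean under 0.5 CPM, and on means a mean of 2 CPM or more, the libraries not overlapping. By this rule 20 IDs (0.137% of those tested) were off in Pcl1-3 + Epop KO and on in Jarid2 + Aebp2 KO, and 3 IDs (0.0205%) the other way. All 20 were past the threshold, and 2 of the 3, against 4.26% of all IDs tested. The rule itself asks for a wide gap without overlap in the same libraries, so these calls are no separate support. Of the 20, 4 had no read in the 3 Pcl1-3 + Epop KO libraries. The 2 IDs that led the lower set are among the 20. How much of the imbalance stems from differences between lines was not tested.

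In the other knockouts these 20 IDs did not behave alike. In Pcl1-3 KO, 19 of them were under 0.5 CPM, with a median of 0.104 CPM, and none reached 2 CPM. Their median was 0.166 CPM in Pcl1-3 + Epop KO and 4.25 CPM in Jarid2 + Aebp2 KO. In Pcl1-3 + Jarid2 + Aebp2 KO 14 were under 0.5 CPM, and in Pcl1-3 + Jarid2 KO and in Pcl1-3 + Jarid2 + Aebp2 + Epop KO 8 each, with 3 and 6 at 2 CPM or more. In Suz12 KO 17 were at 2 CPM or more, with a median of 5.34 CPM, and 1 was under 0.5 CPM. Of the 20, 7 were under 0.5 CPM in all 5 genotypes without Pcl1-3. Among those 7 is the 1 ID under 0.5 CPM in Suz12 KO, with 0.0206 CPM there and 3.82 CPM in Jarid2 + Aebp2 KO. Its low level was thus not limited to genotypes without Pcl1-3. For the rest of the 7, a difference between lines and the loss of Pcl1-3 again cannot be told apart.

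**Figure D4:**
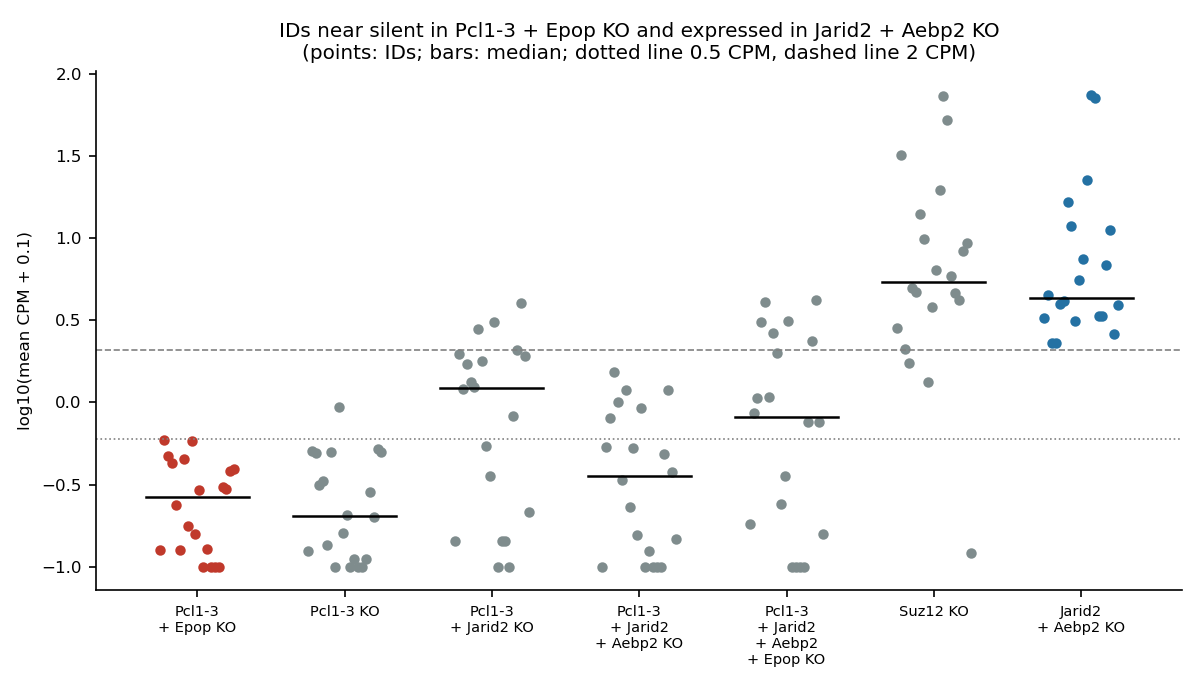
Points are the 20 IDs under 0.5 CPM in Pcl1-3 + Epop KO and at 2 CPM or more in Jarid2 + Aebp2 KO, as log10(mean CPM + 0.1) in each knockout; bars are medians. In Pcl1-3 KO 19 of the 20 lie under the 0.5 CPM line, while in Suz12 KO 17 lie at or above the 2 CPM line.

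The called IDs were then followed into knockouts that took no part in the comparison. For each ID the mean log2 CPM of another genotype was set beside those of Pcl1-3 + Epop KO and Jarid2 + Aebp2 KO, and the nearer was noted. Pcl1-3 KO lay nearer to Pcl1-3 + Epop KO for 277 of the 284 higher IDs (97.5%) and 326 of the 340 lower IDs (95.9%), against 67.1% of all IDs tested. The Pcl1-3 KO libraries are separate from those of the comparison, but the IDs and both end points come from it. Called IDs were chosen for a clear gap between these end points, and most IDs tested were not. The share over all IDs is therefore not a matched baseline, here or for the genotypes below. An ID called because Jarid2 + Aebp2 KO alone stood out can place any other genotype nearer to Pcl1-3 + Epop KO. How much of the shares stems from this was not tested.

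For the genotypes that lost subunits of both sides the shares were closer to those over all IDs, most of all for the lower IDs. In Pcl1-3 + Jarid2 + Aebp2 KO it was 231 of the higher (81.3%) and 242 of the lower IDs (71.2%), against 61.4% of all. Pcl1-3 + Jarid2 KO gave 81.0% of the higher and 62.6% of the lower IDs, against 57.5% of all, so that the share of lower IDs was near that of all. In Pcl1-3 + Jarid2 + Aebp2 + Epop KO, which lacks every subunit removed in either knockout, it was 208 (73.2%) and 219 (64.4%), against 59.9% of all, and again the share of lower IDs was near it. There 153 of the higher IDs lay above the level of Pcl1-3 + Epop KO and 34 below that of Jarid2 + Aebp2 KO. Of the lower IDs, 148 lay below Pcl1-3 + Epop KO and 62 above Jarid2 + Aebp2 KO. The level was thus outside the range between the knockouts compared for 65.9% of the higher and 61.8% of the lower IDs. Over all IDs tested that share was 84.8%, so nothing particular to the called IDs is read from it.

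In Suz12 KO the 2 sets parted. It lay nearer to Pcl1-3 + Epop KO for 204 of the 284 higher IDs (71.8%) but for 130 of the 340 lower IDs (38.2%), against 55.7% of all. Relative to the midpoint of the knockouts compared, the median level in Suz12 KO was 0.43 log2 units higher for the higher IDs and 0.32 log2 units higher for the lower IDs. For the same IDs Pcl1-3 KO had medians of 0.33 and −0.38. These medians were not taken over all IDs tested, so they are not shown to be particular to the called IDs.

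**Figure D5:**
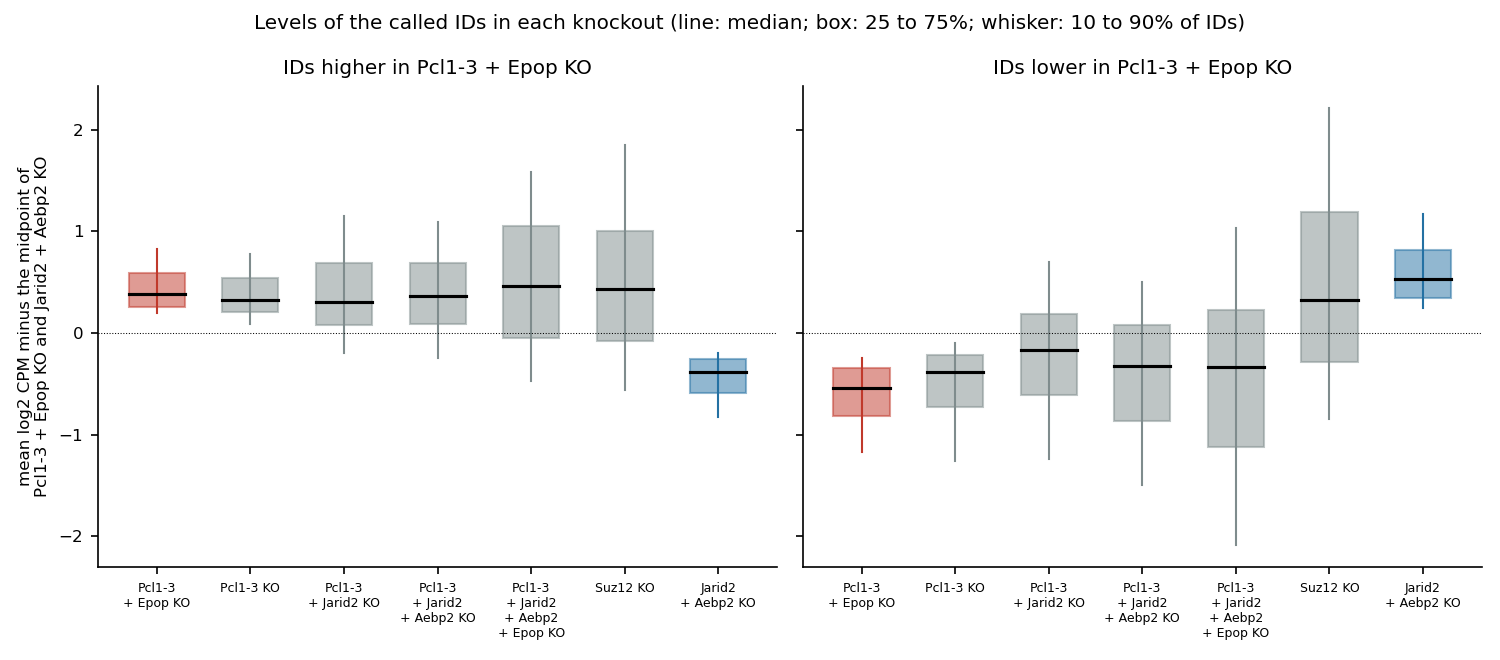
Boxes give the 25 to 75% range over IDs, lines the median and whiskers the 10 to 90% range of mean log2 CPM minus the midpoint of Pcl1-3 + Epop KO and Jarid2 + Aebp2 KO, for the 284 higher IDs (left) and the 340 lower IDs (right). Pcl1-3 KO follows Pcl1-3 + Epop KO in both panels (medians 0.33 and −0.38), while Suz12 KO lies above the midpoint in both (0.43 and 0.32).

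A contrast on 6 other libraries asked whether the loss of Jarid2 and Aebp2 in cells already without Pcl1-3 moved the same IDs. In Pcl1-3 KO against Pcl1-3 + Jarid2 + Aebp2 KO, 353 IDs were higher (2.41%) and 436 lower (2.98% of IDs tested) by the same edgeR fit and threshold. Both contrasts take the spread of an ID from that fit, so an ID with a small estimated spread passes more easily in both. The calls are therefore not independent, and how much of the overlap stems from this was not tested. Of the 284 IDs higher in Pcl1-3 + Epop KO, 24 were higher in Pcl1-3 KO (8.45% of the 284, and 6.80% of the 353), 30 were lower (10.6%) and 230 did not pass. Of the 340 lower IDs, 61 were lower in Pcl1-3 KO (17.9% of the 340, and 14.0% of the 436), 30 were higher (8.82%) and 249 did not pass. With the replicate block, a setting added after the data were seen, 901 IDs were higher (6.15%) and 1019 lower (6.96% of IDs tested) in this contrast. Of the 284 IDs, 35 were then higher in Pcl1-3 KO, 52 lower and 197 did not pass; of the 340, 42 were higher, 79 lower and 219 did not pass. Leaving out each of its 6 libraries in turn gave 349 to 932 in all, against 789. An ID that did not pass is not shown to be equal between these knockouts.

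Few IDs followed a single subunit through all 21 knockout libraries. The rule asked for every library that lost the subunit to lie at least 2-fold below, or above, every library that kept it. For Pcl1-3, with 15 libraries against 6, 16 IDs were lower where it was lost, all of them among the 340, and 1 was higher, among the 284. Here too a difference between lines and the loss of Pcl1-3 cannot be told apart. For Jarid2, with 12 against 9 libraries, 1 ID was lower where it was lost, and for Aebp2, with 9 against 12, also 1; these are the IDs that led the higher set, described above. For Epop, with 6 against 15 libraries, no ID met the rule. The rule uses the libraries of the comparison as well, so these counts are a description.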

How the data were processed

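The authors deposited 1 file of raw read counts for each library, listed by Ensembl gene ID. Per the submitters' processing notes, STAR and HTSeq were used with build mm10. Their versions, the annotation and the strand setting are not stated there, so overlapping, antisense and near-identical genes are uncertain. Per the labels' protocols, the kit was Illumina TruSeq, on total RNA. The comparison and lists were chosen with earlier results of these data known.

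Counts of the 24 RNA libraries (10148155 to 28442061 reads) were filtered with filterByExpr (14650 IDs kept) and scaled by TMM. They were fitted in edgeR 4.0.16 (R 4.3.3) by the quasi-likelihood test, with genotype as the only factor and robust estimates of dispersion. The code was tested on simulated data. There all genotypes had the same spread for an ID and replicates had no shared effect, so unequal spread and pairing were not covered. WT and the other 5 genotypes entered only the filter and the spread. The log2 CPM used a prior count of 2. Other settings tried were DESeq2 1.42.0, limma-voom (limma 3.58.1), scaling, filter, libraries fitted, and the replicate block. For the replicate block only, the labels' replicate numbers were taken to pair libraries across the genotypes. The reason was that same-numbered libraries deviated together (r of 0.266, 0.423 and 0.628 across IDs). Replicate 1 of Pcl1-3 + Epop KO, however, correlated more with replicate 2 of Jarid2 + Aebp2 KO (0.338). Between Pcl1-3 KO and Pcl1-3 + Jarid2 + Aebp2 KO, r was 0.286, 0.334 and 0.540 for same-numbered libraries. It was −0.483 to 0.168 for the other pairs of those genotypes. Deviations from a genotype's mean cancel out within the genotype, so these r values are not independent of each other. Named IDs were the 2 highest and 2 lowest log2 fold changes among called IDs whose mean reached 1 CPM in the higher genotype and no overlap between libraries. This fallback of the rule applied because no ID matched a symbol; for the same reason 23 gene lists and the peak lists were not used here. In a check for libraries deposited in duplicate, no pair within these 2 genotypes agreed within counting noise (chi-square per degree of freedom 14.6 to 67.8); this does not show that the libraries are biological replicates.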

Additional observations from a re-analysis of the deposited data

How the results depend on the processing

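All counts here are of IDs in Pcl1-3 + Epop KO against Jarid2 + Aebp2 KO, set beside 624 in all, 284 higher and 340 lower, and 108 and 184 past 2-fold. With the replicate block there were 1318 in all, 627 higher and 691 lower, and 201 and 279 past 2-fold. With only the 6 libraries compared there were 57, 12 and 45, and 9 and 41 past 2-fold; that fit has 4 residual degrees of freedom, against 16, and tests 12966 IDs. With the 6 libraries and the replicate block there were 299, 100 and 199, and 55 higher past 2-fold. Added after the data were seen, limma-voom with a weight per genotype gave 246, 101 and 145, and 51 and 90 past 2-fold, and the 6 libraries without replicate 3 of Pcl1-3 + Epop KO gave 153, 32 and 121, and 22 and 94 past 2-fold. Without the filter on low counts 174 were higher. Leaving out each of the 6 libraries in turn gave 323 to 657 in all, 133 to 267 higher, 180 to 390 lower, 70 to 129 higher past 2-fold and 117 to 233 lower past 2-fold; the total was 344 without replicate 2 of Pcl1-3 + Epop KO, and 401 and 323 without replicates 2 and 3 of Jarid2 + Aebp2 KO. DESeq2 called 868, limma-voom 611, the fit of 21 libraries without WT 541, DESeq2's size factors 630 and upper-quartile scaling 620, all within 1.5 times. In the alternatives of the first comparison the IDs called in the first fit kept their direction wherever tested, and the 4 named IDs stayed past the threshold throughout. For Pcl1-3 KO against Pcl1-3 + Jarid2 + Aebp2 KO, with 789 in all, 353 higher and 436 lower, settings added after the data were seen gave 1920, 901 and 1019 with the replicate block, and 349 to 932, 147 to 451 and 194 to 481 without each of its libraries in turn; the total was 354 and 349 without replicates 1 and 3 of Pcl1-3 KO, and 422 and 467 without replicates 2 and 3 of Pcl1-3 + Jarid2 + Aebp2 KO. The causes were not tested, beyond fewer libraries and IDs by construction. Alternatives on peaks were not run, since IDs carry no positions.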
